A study of Mus musculus with 12 samples.

Results

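Keratins are the intermediate filament proteins of epithelial cells, and their messenger RNAs were followed here in mouse PYMT cells given BMP4 and TGFB2 together, BMP4, TGFB2, or neither. The members are all genes of the count table whose symbol is Krt followed by digits only, which gave 50 genes of 54347. Of these, 16 passed the filter on low counts and were among the 15319 genes tested, and 34 fell below it. A level of at least 0.1 TPM (a transcript share scaled for gene length and depth) on average over all libraries was reached by 21 keratins. Krt4, Krt39 and Krt40 were listed at 0 in all 12 libraries, where a count of 0 allows at most 0.0712 to 0.105 CPM (counts scaled to the library total), the level of 3 counts, which covers counting error only.

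The 4 groups had 3 libraries each. They were named BMP4-TGFB2, BMP4, TGFB2 and NT, the last being cells with no ligand. PYMT stands for the polyoma middle T oncogene of a mouse breast tumour model, and the cells grew in matrigel, a basement membrane gel. A ligand was given at 5 ng/mL over 3 days, the medium was then replaced, and RNA was taken 2 days later, so the values describe cells some days after the ligand was withdrawn. All groups share this cell line and gel, and the labels do not say how many clones or passages the line holds. The study compared the programs set by the 2 ligands in relation to tumour cell dormancy. The labels name the replicates biological but do not say how they were kept apart, and p-values here reflect only the spread of these samples, which may be technical.

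Keratin filaments are built from pairs of an acidic type I and a basic type II chain. Luminal cells of the mammary gland mainly carry Krt8 with Krt18 and Krt19, basal and myoepithelial cells carry Krt5 with Krt14, and Krt6, Krt16 and Krt17 appear in wounded or hyperproliferative epithelia. TGFB2 and BMP4 are ligands of the same family that act through different SMAD proteins, TGFB2 through SMAD2 and SMAD3 and BMP4 through SMAD1 and SMAD5.

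In the GENCODE M21 annotation on GRCm38 all 50 identifiers were found, 25 on chromosome 11 and 25 on chromosome 15. The chromosome 11 genes are the type I cluster. Krt15 (chr11:100131758-100135928), Krt19 (chr11:100140810-100148665), Krt14 (chr11:100203162-100207548), Krt16 (chr11:100246091-100248902) and Krt17 (chr11:100256217-100261029) lie in that order on it, all on the minus strand. Krt18, although type I, lies on chromosome 15 (chr15:102028180-102032027, plus strand) beside the type II genes Krt8 (chr15:101996698-102004482, minus strand), Krt7 (chr15:101411043-101430313, plus strand) and Krt80 (chr15:101347444-101370162, minus strand). RefSeq promoters on GRCm38.p6, reaching from 250 bases before to 50 bases after the start, were at hand for 35 keratins in 36 windows. Of the keratins described one by one below, Krt8, Krt18, Krt7, Krt14, Krt10 and Krt23 were among them.

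The windows of Krt14 (chr11:100205981-100206280, minus strand) and Krt23 (chr11:99493071-99493370, minus strand) are shown because these keratins moved in opposite directions with BMP4. Capitals mark the letters GTCTG, the reverse complement of CAGAC, a core that SMAD proteins can bind. The windows are set on the RefSeq start. For Krt14 that start (position 100206030) is also the start of 1 of its 2 GENCODE transcripts, while the other starts upstream at position 100207548, so the Krt14 window lies within the GENCODE gene.
Krt14: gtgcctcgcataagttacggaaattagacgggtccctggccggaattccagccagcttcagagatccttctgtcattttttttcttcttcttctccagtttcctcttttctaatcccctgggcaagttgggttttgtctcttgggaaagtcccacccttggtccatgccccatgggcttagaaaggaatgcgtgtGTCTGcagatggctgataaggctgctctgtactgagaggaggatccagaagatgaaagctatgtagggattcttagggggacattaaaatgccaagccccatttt
Krt23: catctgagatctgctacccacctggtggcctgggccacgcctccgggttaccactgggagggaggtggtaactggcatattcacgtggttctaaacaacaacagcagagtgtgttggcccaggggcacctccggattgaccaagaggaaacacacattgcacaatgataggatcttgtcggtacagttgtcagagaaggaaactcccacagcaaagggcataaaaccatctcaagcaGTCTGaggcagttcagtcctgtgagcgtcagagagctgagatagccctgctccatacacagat
The match begins 55 bases before the RefSeq start in Krt14 and 13 bases before it in Krt23. The only GENCODE transcript of Krt23 starts upstream of its RefSeq start, at position 99493137, so the Krt23 match lies within that transcript. CAGAC, searched on both strands, stood in 25 of the 36 keratin windows (69.4%), against 49.6% of all 32851 windows. GGCGCC, a motif of BMP-activated SMAD proteins, stood in 1 of 36 keratin windows (2.78%), that of Krt18, against 11.9% of all. TGANTCA, the AP-1 motif, stood in 2 of 36 (5.56%), against 7.81% of all. The TATA box TATAAA stood in 18 of 36 keratin windows (50%), against 13.6% of all, among them Krt8 and Krt10 but neither Krt14 nor Krt23. None of these motifs contains another. Keratin genes are related by descent, so their windows are not independent, and a match is only a description of letters.

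Total counts ran from 28543100 to 42167800 per library. The label of an epithelial line was checked on Epcam, the epithelial adhesion molecule, at 653 to 968 TPM, and Cdh1, E-cadherin, at 137 to 217 TPM over the 12 libraries. Ptprc, the leukocyte common antigen, stayed at or below 0.317 TPM, while Csf1r, a macrophage receptor, had 1.89 to 2.97 TPM with BMP4-TGFB2, 0.314 to 2.67 with BMP4, 1.75 to 2.34 with TGFB2 and 0.0529 to 0.196 in NT. Csf1r rose against NT by 3.99 ± 0.62 with BMP4-TGFB2 (adjusted p = 0.000821 in edgeR), by 2.62 ± 0.60 with BMP4 (adjusted p = 0.0292) and by 3.65 ± 0.62 with TGFB2 (adjusted p = 0.00163), and Laptm5 rose with TGFB2 (2.28 ± 0.71, adjusted p = 0.0380). Summed over 8 leukocyte markers, the level was 8.14 to 14.1 TPM with BMP4-TGFB2, 7.96 to 13.4 with BMP4, 6.97 to 16.8 with TGFB2 and 3.69 to 7.42 TPM in NT. The B cell marker Ms4a1 was at 0 in all 3 NT libraries and at most 0.170 TPM elsewhere, and the T cell marker Cd3e was at most 0.148 TPM. Summed over 5 endothelial markers the range was 0.802 to 1.94 TPM, and over 6 fibroblast markers 4.17 to 12.3 TPM with BMP4-TGFB2, 2.04 to 12.1 with BMP4, 7.44 to 11.3 with TGFB2 and 2.04 to 7.69 in NT. Of the 6 fibroblast markers Col1a1, Col3a1 and Pdgfra rose with BMP4-TGFB2 and with TGFB2 against NT, where 13.3% and 11.3% of all genes rose. Pdgfra rose by 2.69 ± 0.41 with BMP4-TGFB2 (adjusted p = 0.000664) and by 2.37 ± 0.40 with TGFB2 (adjusted p = 0.00171). Col1a2, Dcn and Lum did not pass in either. With BMP4 against NT Col1a1 came nearest to the threshold (0.93 ± 0.31, adjusted p = 0.121). Their part in the keratin changes was not tested.

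Keratin transcripts were dominated by few genes. Krt8, Krt18, Krt7, Krt14 and Krt19 held 96.7% to 99.1% of the summed keratin TPM in each library. The sum was 4240.0 ± 174 TPM with BMP4-TGFB2, 4328 ± 534 with BMP4, 4058 ± 432 with TGFB2 and 3532 ± 416 in NT (SD, n = 3 each), which is 0.424%, 0.433%, 0.406% and 0.353% of all transcripts in those groups. Krt14 took 17.9% ± 7.6 of keratin transcripts with BMP4-TGFB2, 25.6% ± 4.8 with BMP4, 11.7% ± 3.9 with TGFB2 and 7.95% ± 2.24 in NT (SD, n = 3 each). Type I chains summed to 1.01 ± 0.20 times type II chains with BMP4-TGFB2, 1.36 ± 0.26 with BMP4, 0.910 ± 0.135 with TGFB2 and 0.925 ± 0.121 in NT. Fewer cells that express a keratin and less keratin RNA per cell cannot be told apart in these bulk libraries.

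**Figure D1:**
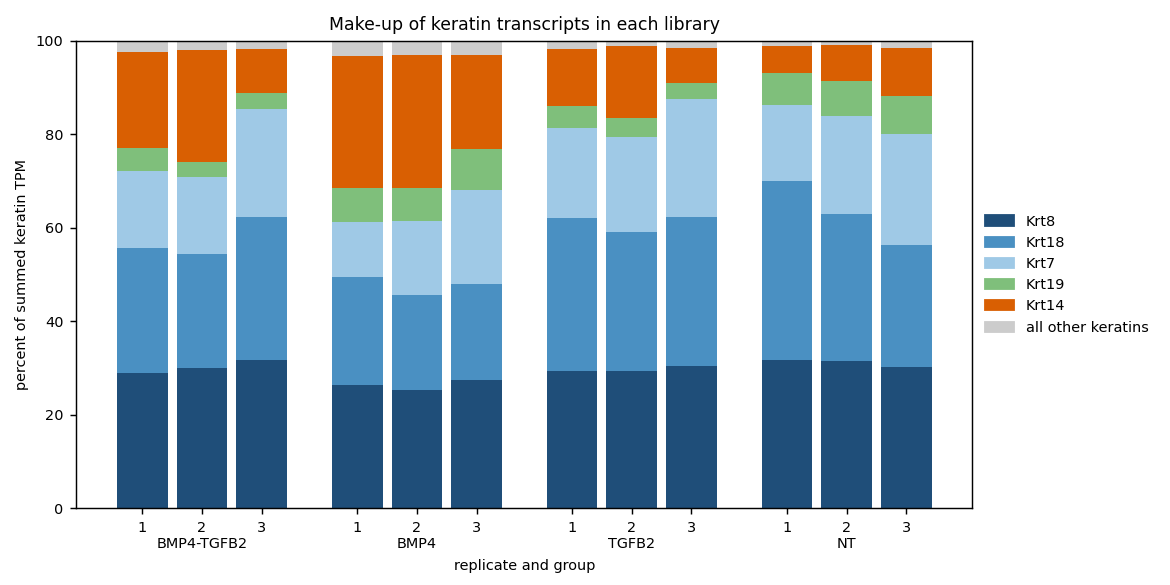
Stacked bars give the percent of summed keratin TPM held by 5 keratins and by all others in each of the 12 libraries, grouped by treatment. Krt14 (orange) is widest with BMP4, at 25.6% on average, and narrowest in NT, at 7.95%.

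Among the keratins of simple and luminal epithelia, Krt8 and Krt18, the pair present in nearly all simple epithelia, were the most abundant and moved little. Krt8 (ENSMUSG00000049382.10) had 1219, 1227 and 1403 TPM with BMP4-TGFB2, 977, 1171 and 1279 with BMP4, 1149, 1095 and 1382 with TGFB2, and 982, 1127 and 1184 in NT. In TPM the BMP4-TGFB2 libraries lay above the NT libraries and the other groups overlapped, in CPM all groups overlapped, and Krt8 passed in no comparison. Against NT its log2 fold change was 0.25 ± 0.15 with BMP4-TGFB2 (95% interval -0.07 to 0.57), 0.10 ± 0.15 with BMP4 (-0.22 to 0.42) and 0.14 ± 0.15 with TGFB2 (-0.18 to 0.46). Fold changes here and below are log2 values of normalized counts from the quasi-likelihood test of edgeR, with their SE, and adjusted p-values are by Benjamini-Hochberg over all tested genes. A gene passed at an adjusted p under 0.05.

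Krt18 (ENSMUSG00000023043.7) had 1121, 999 and 1353 TPM with BMP4-TGFB2, 862, 940.2 and 955 with BMP4, 1277, 1099.9 and 1447 with TGFB2, and 1183, 1129 and 1021 in NT. In TPM the 3 BMP4 libraries were the lowest of all. In CPM they lay below NT and TGFB2 but overlapped with BMP4-TGFB2. Krt18 did not pass in BMP4 against NT (-0.23 ± 0.15, adjusted p = 0.470) or in BMP4 against TGFB2 (-0.43 ± 0.15, adjusted p = 0.110). With the replicate number as a block the adjusted p of the second was 0.0398. Of the 31-base words in Krt8 transcripts 32.2% also occur in the pseudogene Krt8-ps, and of those in Krt18 9.31% occur in Gm5200, so part of these reads can be assigned either way.

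Krt7, a type II keratin of glandular and ductal epithelia, had 692, 667 and 1028 TPM with BMP4-TGFB2, 433, 730.2 and 931 with BMP4, 752, 758 and 1151 with TGFB2, and 499.5, 755 and 936 in NT. Replicate 3 was the highest in every group, the groups overlapped, and no comparison passed. Its log2 fold change against NT was 0.16 ± 0.30 with BMP4-TGFB2, -0.04 ± 0.30 with BMP4 and 0.26 ± 0.30 with TGFB2.

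Krt19, the shortest keratin, a type I chain of luminal and ductal cells without a tail domain, was lower in both groups that received TGFB2. It had 205, 138 and 154 TPM with BMP4-TGFB2, 272, 321 and 413 with BMP4, 188, 151 and 152 with TGFB2, and 210.3, 263 and 318 in NT. All TGFB2 libraries lay below all NT libraries, while BMP4 and NT overlapped. Krt19 fell by 0.71 ± 0.23 with TGFB2 against NT (adjusted p = 0.0442), fell by 0.68 ± 0.23 with BMP4-TGFB2 against NT (adjusted p = 0.0458) and fell by 1.002 ± 0.23 with BMP4-TGFB2 against BMP4 (adjusted p = 0.0186). With BMP4 against TGFB2 it rose by 1.03 ± 0.23 (adjusted p = 0.0179), and with BMP4 against NT the difference was 0.32 ± 0.23 (adjusted p = 0.501). BMP4-TGFB2 and NT overlapped in CPM.

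The calls of Krt19 rested on few libraries. The call with TGFB2 against NT was lost without any 1 of 6 libraries (BMP4-TGFB2 replicate 3, BMP4 replicate 2, TGFB2 replicates 2 and 3, NT replicates 2 and 3), at adjusted p-values of 0.0563 to 0.170. The call with BMP4-TGFB2 against NT was lost without any 1 of 7, the same ones and BMP4-TGFB2 replicate 2, at 0.0563 to 0.175. The calls in the comparisons between treatments were each lost without any 1 of 3 libraries, namely BMP4-TGFB2 replicates 2 and 3 and BMP4 replicate 3 in BMP4-TGFB2 against BMP4 (0.0583 to 0.0714), and BMP4 replicate 3 and TGFB2 replicates 2 and 3 in BMP4 against TGFB2 (0.0553 to 0.0778).

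**Figure D2:**
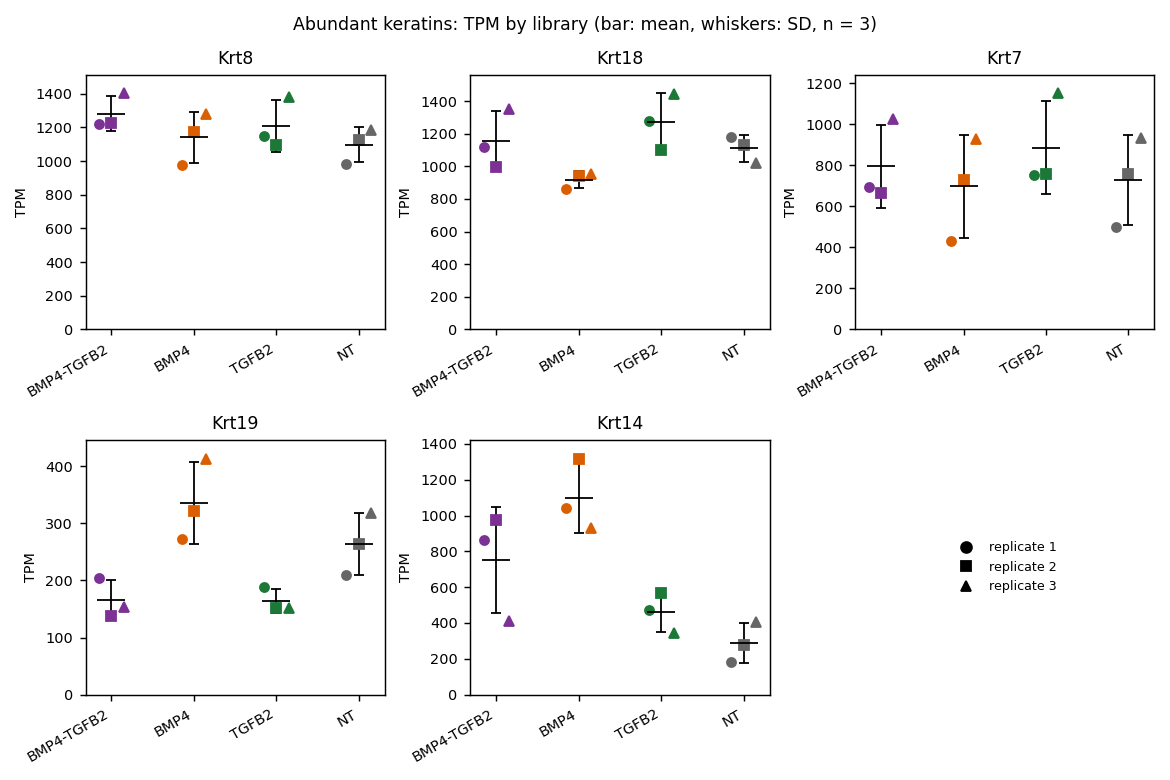
Points give the TPM of 5 abundant keratins in each library by group, with the mean and SD of 3 libraries. Krt7 overlaps between all groups, Krt18 is lowest in the BMP4 libraries, Krt8 with BMP4-TGFB2 lies above NT, Krt19 is low in both groups with TGFB2, and Krt14 is highest with BMP4, at 933 to 1318 TPM.

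Krt23, a type I keratin known from epithelia of the gut and liver, had the largest fall against NT of the keratins described one by one. It had 0.142, 0 and 0.137 TPM with BMP4-TGFB2, 1.62, 1.02 and 0.613 with BMP4, 0.269, 0.209 and 0.216 with TGFB2, and 11.1, 9.50 and 3.81 in NT. The counts behind these were 5, 0 and 4 with BMP4-TGFB2, 62, 29 and 19 with BMP4, 11, 6 and 7 with TGFB2, and 375, 322 and 117 in NT. Every library with a ligand lay below every NT library, and BMP4 lay between NT and the groups with TGFB2.

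Krt23 fell by 6.28 ± 0.74 with BMP4-TGFB2 against NT (adjusted p = 0.000134), fell by 5.09 ± 0.68 with TGFB2 against NT (adjusted p = 0.000378) and fell by 2.84 ± 0.59 with BMP4 against NT (adjusted p = 0.0182). It fell by 3.44 ± 0.71 with BMP4-TGFB2 against BMP4 (adjusted p = 0.0117), a call lost in limma voom (-3.71, adjusted p = 0.0916) and in limma on log2(TPM + 1) (-0.91, adjusted p = 0.0992) but not on log2(TPM + 0.1) (-2.64, adjusted p = 0.00972). With BMP4-TGFB2 against TGFB2 the difference was -1.20 ± 0.76 (95% interval -2.86 to 0.47), and with BMP4 against TGFB2 it was 2.24 ± 0.63 (adjusted p = 0.0537), or 2.18 with an adjusted p of 0.0174 with the replicate block. No 31-base word of Krt23 transcripts occurs in another gene. The call with BMP4 against NT was lost without BMP4 replicate 2 or 3 or NT replicate 1 or 2, at adjusted p-values of 0.0551 to 0.0855. Without BMP4-TGFB2 replicate 2, BMP4 replicate 3 or NT replicate 3, BMP4 against TGFB2 passed instead, at 0.0257 to 0.0482.

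Among the basal keratins, Krt14, the type I partner of Krt5 in basal and myoepithelial cells, was high with BMP4 and with both ligands. It had 864, 977 and 414 TPM with BMP4-TGFB2, 1044, 1318 and 933 with BMP4, 472, 569.9 and 344 with TGFB2, and 179.8, 278 and 403 in NT. All BMP4 libraries lay above all TGFB2 and all NT libraries, and BMP4-TGFB2 replicate 3 was close to NT replicate 3. Krt14 rose by 1.99 ± 0.36 with BMP4 against NT (adjusted p = 0.00891) and by 1.42 ± 0.35 with BMP4-TGFB2 against NT (adjusted p = 0.0118). With TGFB2 against NT the difference was 0.71 ± 0.34 (adjusted p = 0.167), with groups that overlapped.

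Between the treatments, Krt14 rose by 1.28 ± 0.35 with BMP4 against TGFB2 (adjusted p = 0.0461). The difference was 0.71 ± 0.34 with BMP4-TGFB2 against TGFB2 (95% interval -0.04 to 1.47) and -0.57 ± 0.34 with BMP4-TGFB2 against BMP4 (adjusted p = 0.353). The call with BMP4 against TGFB2 was lost without any 1 of 9 libraries, namely all those of BMP4 and TGFB2, BMP4-TGFB2 replicates 1 and 2 and NT replicate 2, at adjusted p-values of 0.0529 to 0.158, and in limma on TPM, at 0.0568 and 0.0595. Krt14 shares 17.6% of its 31-base words with Krt16 and 10.5% with Krt17, both at far lower levels.

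Krt5, the type II partner of Krt14 in basal cells, was low while Krt14 was among the 5 most abundant keratins. Krt5 had 0.507, 0.570 and 0.353 TPM with BMP4-TGFB2, 0.252, 0.337 and 0.400 with BMP4, 0.853, 0.0976 and 0.677 with TGFB2, and 0.239, 0.0639 and 0.134 in NT. Its level was 0.000171 to 0.00197 times that of Krt14 over the libraries. Krt5 passed in no comparison, its difference with TGFB2 against NT being 1.92 ± 0.73 (adjusted p = 0.0828), and without TGFB2 replicate 2 it passed there (2.41, adjusted p = 0.0194) and with BMP4-TGFB2 against NT (1.72, adjusted p = 0.0448). Trp63, a transcription factor of basal cells, was at or below 0.775 TPM in all libraries. Of myoepithelial genes, Acta2, smooth muscle actin, had 2.40 to 11.6 TPM and Oxtr, the oxytocin receptor, at most 0.106 TPM.

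Krt15, a type I keratin of basal keratinocytes and hair follicle stem cells, was raised by BMP4 alone and not by BMP4 with TGFB2. It had 0.157, 0.442 and 0.155 TPM with BMP4-TGFB2, 11.4, 29.7 and 12.4 with BMP4, 0.339, 0.0635 and 0.171 with TGFB2, and 0.484, 0.563 and 1.07 in NT. The counts were 2, 6 and 5 with BMP4-TGFB2, 479, 839 and 423 with BMP4, 7, 2 and 3 with TGFB2, and 18, 21 and 36 in NT. All BMP4 libraries were far above the rest, and the groups with TGFB2 lay below NT in CPM without overlap.

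Krt15 rose by 4.60 ± 0.49 with BMP4 against NT (24.3-fold, adjusted p = 0.000642). It fell by 6.93 ± 0.57 with BMP4-TGFB2 against BMP4 (adjusted p = 0.000188) and rose by 7.29 ± 0.58 with BMP4 against TGFB2 (adjusted p = 0.000194). It fell by 2.68 ± 0.56 with TGFB2 against NT (adjusted p = 0.00563) and by 2.33 ± 0.55 with BMP4-TGFB2 against NT (adjusted p = 0.00994), calls that rest on counts of at most 36 and were lost in limma on voom and TPM values, at adjusted p-values of 0.0656 to 0.282 and 0.116 to 0.335. The difference with BMP4-TGFB2 against TGFB2 was 0.36 ± 0.66 (95% interval -1.09 to 1.81). The interaction of the ligands, the log2 change of both together beyond the sum of the single changes, was -4.24 ± 0.83 (95% interval -6.06 to -2.42, unadjusted p = 0.000304, adjusted p = 0.0831). With the replicate block it was -4.29 with an adjusted p of 0.0369. Of the genes listed above with Krt15 on chromosome 11, Krt14 and Krt16 rose with BMP4 against NT, while Krt19 and Krt17 did not pass.

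Among the keratins of stressed and wounded epithelia, Krt16, a type I chain that pairs with Krt6, was high with BMP4. It had 45.5, 30.1 and 11.2 TPM with BMP4-TGFB2, 83.9, 81.2 and 85.9 with BMP4, 14.1, 8.01 and 4.14 with TGFB2, and 3.39, 3.09 and 21.4 in NT. The BMP4 libraries lay close together and above all others, while NT replicate 3 exceeded all TGFB2 libraries and BMP4-TGFB2 replicate 3. Krt16 rose by 3.22 ± 0.78 with BMP4 against NT (adjusted p = 0.0353) and by 3.27 ± 0.78 with BMP4 against TGFB2 (adjusted p = 0.0252). With BMP4-TGFB2 the differences were 1.67 ± 0.74 against NT (adjusted p = 0.118), 1.72 ± 0.74 against TGFB2 (unadjusted p = 0.0390) and -1.55 ± 0.73 against BMP4 (adjusted p = 0.227).

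A single library of NT carried much of the spread of Krt16: without NT replicate 3, BMP4-TGFB2 against NT was 3.18 with an adjusted p of 0.00603. The call with BMP4 against NT was lost without any 1 of 7 libraries (all 3 of BMP4, NT replicates 1 and 2, BMP4-TGFB2 replicate 2, TGFB2 replicate 2), at adjusted p-values of 0.0530 to 0.139, and that with BMP4 against TGFB2 without BMP4 replicate 1 or 2 or TGFB2 replicate 2 or 3, at 0.0597 to 0.0970. Krt16 transcripts share 19.7% of their 31-base words with Krt14 and 32.2% with Gm11597, which was listed at 0 in all libraries. The level of Krt16 was 0.0271 to 0.0527 times that of Krt14 with BMP4-TGFB2, 0.0617 to 0.0920 with BMP4, 0.0120 to 0.0299 with TGFB2 and 0.0111 to 0.0531 in NT. The part of reads shared with Krt14 in the change of Krt16 was not tested. Krt6a, the type II partner of Krt16, whose symbol ends in a letter and is outside the members, averaged 7.63 ± 4.83 TPM with BMP4-TGFB2, 12.9 ± 2.4 with BMP4, 2.76 ± 1.82 with TGFB2 and 1.86 ± 1.72 in NT (SD, n = 3 each).

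Krt17, a type I keratin induced in injured skin and present in skin appendages, had low levels. It had 2.41, 1.64 and 1.21 TPM with BMP4-TGFB2, 1.53, 1.24 and 0.978 with BMP4, 0.962, 0.917 and 1.81 with TGFB2, and 0.805, 0.268 and 0.329 in NT. All libraries with a ligand lay above all NT libraries. Krt17 rose by 1.95 ± 0.50 with BMP4-TGFB2 against NT (adjusted p = 0.0153), a call lost without BMP4-TGFB2 replicate 1, NT replicate 2 or NT replicate 3, at adjusted p-values of 0.0629 to 0.0667. The differences with BMP4 (1.48 ± 0.50, adjusted p = 0.124) and TGFB2 (1.40 ± 0.50, adjusted p = 0.0656) did not pass. With the replicate block, BMP4 against NT was 1.55 with an adjusted p of 0.0470, and without NT replicate 1, TGFB2 against NT was 2.02 with an adjusted p of 0.0203. Krt17 shares 11.8% of its 31-base words with Krt14, at 0.000817 to 0.00526 times the Krt14 level over the libraries, and the part of such reads in its level was not tested.

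Among the keratins of differentiated stratified epithelia, Krt80, a type II keratin found near desmosomes, was higher in both groups with TGFB2. It had 49.0, 41.6 and 57.9 TPM with BMP4-TGFB2, 19.9, 21.3 and 32.8 with BMP4, 50.3, 31.5 and 54.4 with TGFB2, and 16.9, 14.5 and 24.3 in NT. The groups with TGFB2 lay above NT without overlap, and BMP4 overlapped with NT. Krt80 rose by 1.44 ± 0.28 with BMP4-TGFB2 against NT (adjusted p = 0.00300), by 1.29 ± 0.28 with TGFB2 against NT (adjusted p = 0.00655) and by 0.99 ± 0.27 with BMP4-TGFB2 against BMP4 (adjusted p = 0.0455). The difference was 0.45 ± 0.27 with BMP4 against NT (adjusted p = 0.423) and -0.84 ± 0.27 with BMP4 against TGFB2 (adjusted p = 0.0901, and 0.00215 with the replicate block).

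The call of Krt80 with BMP4-TGFB2 against BMP4 was lost without any 1 of 7 libraries (BMP4-TGFB2 replicates 1 and 3, BMP4 replicates 1 and 2, TGFB2 replicates 1 and 3, NT replicate 2), at adjusted p-values of 0.0530 to 0.178. Without BMP4 replicate 3 or TGFB2 replicate 2, BMP4 against TGFB2 passed, at 0.0394 to 0.0469. The call with BMP4-TGFB2 against NT held without each of the 12 libraries in turn.

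Krt10, the type I partner of Krt1 in the upper epidermis, had 3.69, 2.45 and 4.22 TPM with BMP4-TGFB2, 2.30, 1.85 and 1.93 with BMP4, 1.89, 3.41 and 3.64 with TGFB2, and 1.70, 2.44 and 2.58 in NT. Each treated group overlapped with NT in TPM, while in CPM the TGFB2 libraries lay above the NT libraries. No comparison passed. Its log2 fold change against NT was 0.63 ± 0.36 with BMP4-TGFB2, -0.04 ± 0.36 with BMP4 and 0.37 ± 0.36 with TGFB2. Krt1 averaged 0.00172 TPM over all libraries.

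Krt42, a type I gene beside Krt17 (chr11:100262882-100269871, minus strand), was the only tested keratin with group means under 1 TPM that passed in any comparison. It averaged 0.535 ± 0.078 TPM with BMP4-TGFB2, 0.484 ± 0.217 with BMP4, 0.352 ± 0.263 with TGFB2 and 0.0952 ± 0.0363 in NT (SD, n = 3 each), on counts of 13 to 19 with BMP4-TGFB2 and 2 to 4 in NT. It rose by 2.65 ± 0.70 with BMP4-TGFB2 against NT (adjusted p = 0.0176), a call lost without NT replicate 1 or 2, at adjusted p-values of 0.0550 to 0.0780. Of the other tested keratins at such levels, Krt5, Krt27, Krt87 and Krt90 did not pass, and Krt90 came nearest, with TGFB2 against NT (-3.49 ± 1.19, adjusted p = 0.0561), where it passed without 1 library in 3 cases, at 0.0243 to 0.0473.

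By role, the filter was passed by all 3 basal keratins, both keratins of stress and wounds, 5 of 6 simple and luminal keratins, 4 of 15 keratins of differentiated stratified epithelia and 2 of 22 hair keratins. Krt88 and Krt222, which were put in none of these roles, did not pass it. The 34 keratins below the filter reached at most 2.23 TPM in a library and 0.934 TPM as a group mean, both in Krt13, a keratin of stratified mucosa. Krt13 had 0, 0.568 and 2.23 TPM in the BMP4 libraries. The largest count of such a keratin over all libraries together was 76, in Krt79.

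**Figure D3:**
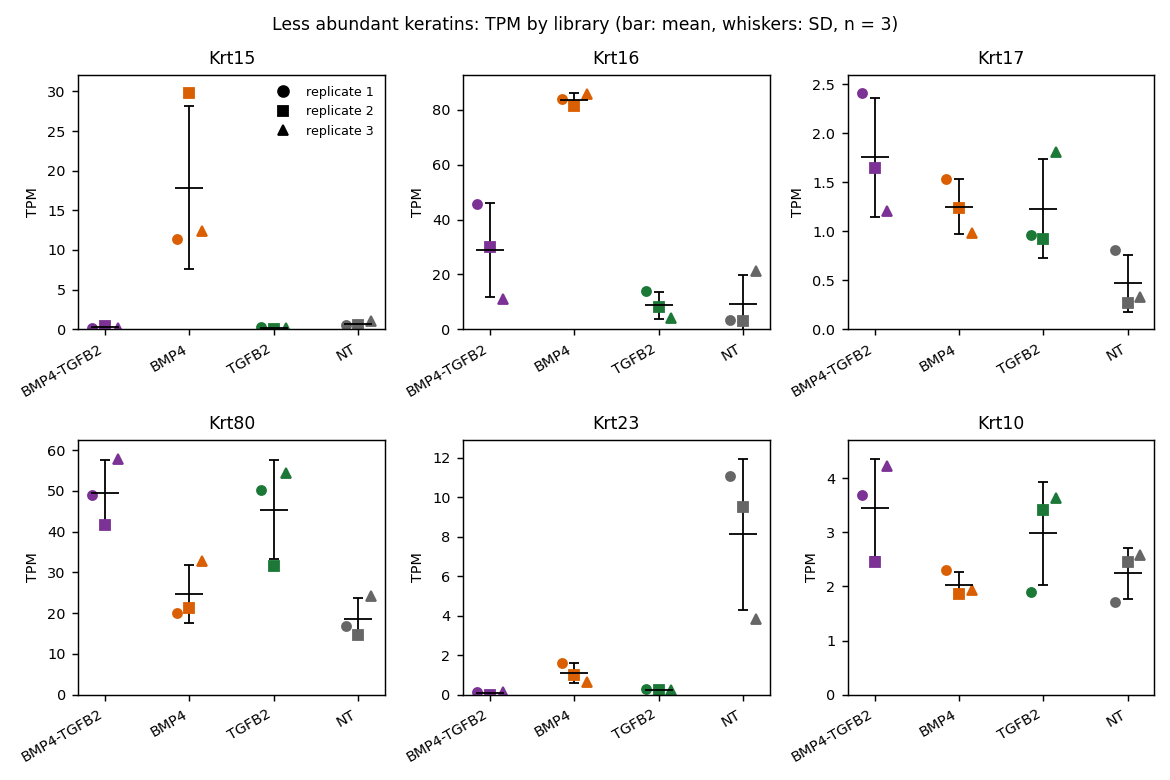
Points give the TPM of 6 less abundant keratins in each library by group, with the mean and SD of 3 libraries. Krt15 and Krt16 stand out with BMP4, Krt80 is high in both groups with TGFB2, and Krt23 is high in NT.

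With TGFB2 against NT the luminal pair Krt8 and Krt18 did not pass. TGFB2 lowered Krt23, Krt15 and Krt19 and raised Krt80. Of the 16 tested keratins 1 rose and 3 fell, or 4 in all, where 22.3% of all tested genes passed (11.3% rose and 11.1% fell). The share of keratins is near that background. Their median log2 fold change was 0.32, against 0.01 over all genes, and the median size was 1.001, against 0.41. Such medians, here and below, were not matched for expression level. Tested keratins with few counts had wide errors, as Krt27 did here (1.37 ± 1.10). Without overlap between the groups were 8 keratins, where 38.5% of all genes did not overlap.

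BMP4 against NT raised the type I keratins Krt14, Krt15 and Krt16 and lowered Krt23. Of the 16 tested keratins 3 rose and 1 fell, where 5.44% of all genes passed (3.19% rose and 2.25% fell). With the replicate block Krt17 passed too, while over all genes the block gave 2356 calls against 833 without it. The median log2 fold change was 0.39, against 0.00 over all genes, and the median size 1.10, against 0.26. The groups did not overlap in 9 keratins, where 23.8% of all genes did not overlap. Without replicate 1 of every group, a fit on fewer libraries, 1 keratin passed, Krt15. That drop was not set against all genes.

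BMP4-TGFB2 against NT raised Krt14, Krt17, Krt42 and Krt80 and lowered Krt15, Krt19 and Krt23. Of the 16 tested keratins 4 rose and 3 fell, where 26.2% of all genes passed (13.3% rose and 12.9% fell). The median log2 fold change was 0.44, against 0.01 over all genes, and the median size 1.43, against 0.44. In 7 keratins the groups did not overlap, where 41.3% of all genes did not. These 3 comparisons share the NT libraries, so their values stand side by side and are not independent.

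BMP4 added to TGFB2 gave no keratin call. With BMP4-TGFB2 against TGFB2, 0 of 16 keratins passed in edgeR, and 0 by DESeq2 and by limma, where 0% of all 15319 genes passed in edgeR and 44 passed by DESeq2. At an unadjusted p under 0.05, which was not counted over all genes, there was 1, Krt16. The median size of the log2 difference was 0.31, against 0.13 over all genes, and the groups did not overlap in 1 keratin, Krt23, where 6.77% of all genes did not.

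TGFB2 added to BMP4 lowered Krt15, Krt23 and Krt19 and raised Krt80. With BMP4-TGFB2 against BMP4, 1 of 16 keratins rose and 3 fell, where 9.22% of all genes passed (4.24% rose and 4.98% fell). In 7 keratins the groups did not overlap, where 28.3% of all genes did not. Fitted on these 2 groups alone, 2 keratins passed, and Krt19 and Krt15 remained, while Krt23 and Krt80 did not pass.

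With BMP4 against TGFB2, Krt14, Krt15, Krt16 and Krt19 rose. These were 4 of 16, and 0 fell by edgeR, where 7.83% of all genes passed (4.16% rose and 3.67% fell). At an unadjusted p under 0.05, which was not counted over all genes, there were 7 in either direction. By DESeq2 6 passed, with Krt80 lower and Krt23 higher in addition. With the replicate block 7 passed, with Krt23 higher and Krt18 and Krt80 lower in BMP4, while over all genes the block gave 2999 calls against 1200 without it. In 7 keratins the groups did not overlap, where 26.1% of all genes did not.

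In the test of the interaction of TGFB2 and BMP4, 0 of 16 keratins passed in edgeR, where 0.157% of all genes passed (0.0522% with a positive and 0.104% with a negative interaction). At an unadjusted p under 0.05, which was not counted over all genes, there were 2, Krt15 and Krt14 (-1.28 ± 0.49, adjusted p = 0.471). By DESeq2 1 keratin passed, Krt15, and by limma on log2(TPM + 1) likewise 1, while 0 passed by limma voom and on log2(TPM + 0.1).

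**Figure D4:**
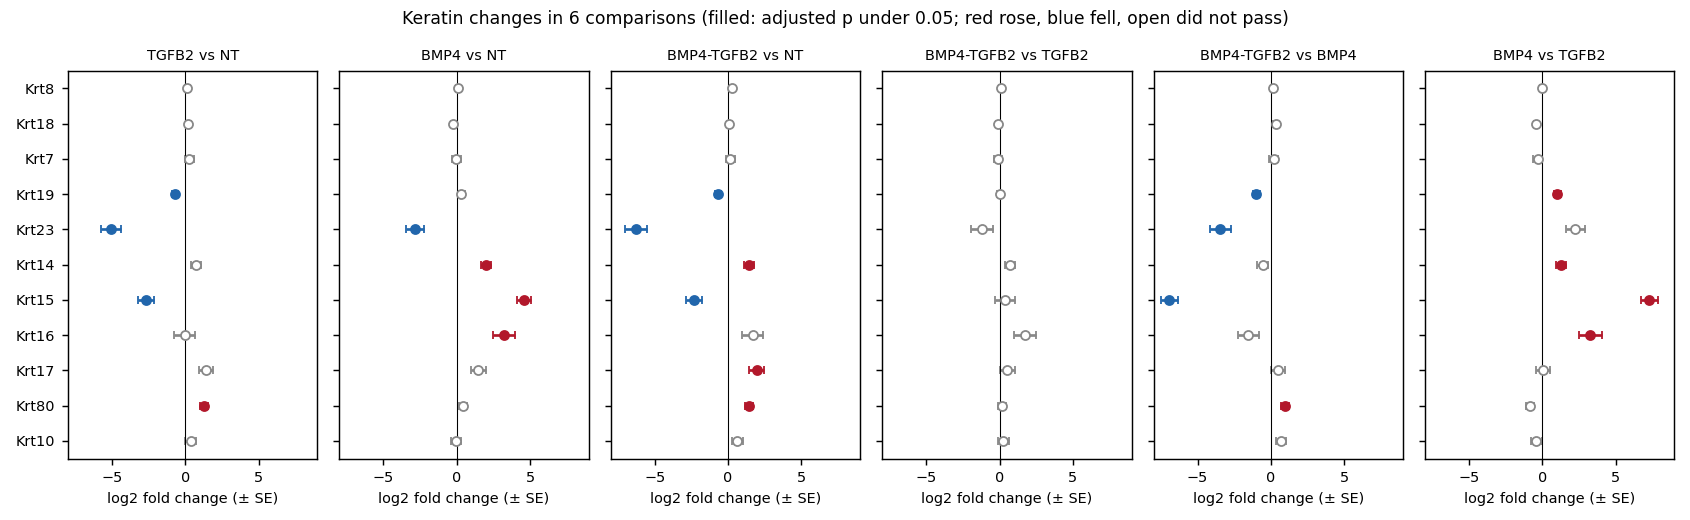
Log2 fold changes with SE of the 11 keratins described one by one in 6 comparisons, filled where the adjusted p was under 0.05 (red rose, blue fell). Krt15 changes most with BMP4 against TGFB2 (7.29) and with BMP4-TGFB2 against BMP4 (-6.93), and all points are open with BMP4-TGFB2 against TGFB2.

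Proteins that anchor keratin filaments were read from a list of 16 genes of desmosomes, hemidesmosomes and cytolinkers, of which 15 were tested. With BMP4-TGFB2 against NT 7 rose and 1 fell, with BMP4 against NT 1 rose, and with TGFB2 against NT 3 rose and 1 fell, where 26.2%, 5.44% and 22.3% of all genes passed in these comparisons. The counts with BMP4 and with TGFB2 are near those shares. Itgb4, the integrin of hemidesmosomes, rose by 0.94 ± 0.12 with BMP4-TGFB2 (adjusted p = 0.000241), and Plec, plectin, which links filaments to it, by 1.32 ± 0.26 (adjusted p = 0.00331). With TGFB2, Itgb4 rose by 0.53 ± 0.12 (adjusted p = 0.00918) and Plec by 0.89 ± 0.26 (adjusted p = 0.0286). Jup, plakoglobin of the desmosome, rose by 0.65 ± 0.12 with TGFB2 (adjusted p = 0.00266), while Ppl, periplakin, fell by 1.34 ± 0.25 (adjusted p = 0.00297). With BMP4-TGFB2, Jup rose by 0.66 ± 0.12 (adjusted p = 0.00200) and Ppl fell by 1.03 ± 0.25 (adjusted p = 0.0104). Pkp1, a desmosomal plakophilin, was the gene that rose with BMP4 (0.93 ± 0.20, adjusted p = 0.0199). The median log2 fold change of the list was 0.66, 0.26 and 0.48 in the 3 comparisons in that order, against 0.01, 0.00 and 0.01 over all genes.

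Of 14 cornified envelope genes, which seal differentiated keratinocytes, 9 were tested. With BMP4-TGFB2 and with TGFB2 against NT, 2 rose and 3 fell, and with BMP4 against NT 2 rose, where 26.2%, 22.3% and 5.44% of all genes passed. Sbsn, suprabasin, fell by 2.26 ± 0.33 with BMP4-TGFB2 and by 2.07 ± 0.33 with TGFB2 (adjusted p = 0.000558 and 0.00112). Dmkn, dermokine, fell by 3.91 ± 0.59 and by 3.67 ± 0.57 in the same order (adjusted p = 0.000626 and 0.000991). Lor, loricrin, rose by 2.38 ± 0.40 with BMP4-TGFB2, by 1.97 ± 0.39 with BMP4 and by 1.93 ± 0.39 with TGFB2 (adjusted p = 0.00124, 0.0154 and 0.00504). Against BMP4, 4 of the 9 fell with BMP4-TGFB2, where 4.98% of all genes fell, among them Sbsn by 3.29 ± 0.34 (adjusted p = 0.000374).

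Of 19 regulators of keratin genes, all tested, 4 rose and 2 fell with BMP4-TGFB2 against NT, 1 rose and 2 fell with BMP4, and 3 rose and 3 fell with TGFB2, where 26.2%, 5.44% and 22.3% of all genes passed. The count with BMP4-TGFB2 is near that share. Elf5, a factor of luminal alveolar cells, had 6.70 to 12.1 TPM with BMP4-TGFB2, 61.2 to 113 with BMP4, 13.4 to 22.4 with TGFB2 and 195 to 299.8 in NT. It fell in each of these groups against NT, with log2 fold changes of -4.73 ± 0.32 with BMP4-TGFB2 (adjusted p = 4.66e-06), -1.49 ± 0.28 with BMP4 (adjusted p = 0.0117) and -3.91 ± 0.31 with TGFB2 (adjusted p = 1.85e-05). Tfap2c, an AP-2 factor of the luminal lineage, fell in each as well, with log2 fold changes of -4.75 ± 0.43 with BMP4-TGFB2, -1.77 ± 0.37 with BMP4 and -4.505 ± 0.42 with TGFB2 (adjusted p = 2.94e-05, 0.0187 and 4.80e-05). Gata3, another luminal marker on the list, did not pass in these groups, at 0.15 ± 0.18, 0.54 ± 0.18 and -0.35 ± 0.18 in that order (adjusted p = 0.594, 0.125 and 0.197). Foxa1 did not pass either, at 0.25 ± 0.39, -0.22 ± 0.39 and 0.11 ± 0.39. Snai1, a repressor of epithelial genes, rose by 1.81 ± 0.24 with BMP4-TGFB2, by 1.23 ± 0.24 with BMP4 and by 1.77 ± 0.24 with TGFB2 (adjusted p = 0.000266, 0.0124 and 0.000402).

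Of 14 other intermediate filament genes 8 were tested, with 1 rise and 2 falls with BMP4-TGFB2 against NT, 1 rise with BMP4 and 1 fall with TGFB2, where 26.2%, 5.44% and 22.3% of all genes passed. Sync, syncoilin, fell by 1.45 ± 0.35 with BMP4-TGFB2 (adjusted p = 0.0112) and by 1.16 ± 0.35 with TGFB2 (adjusted p = 0.0337). Lmnb1, lamin B1, fell by 1.59 ± 0.47 with BMP4-TGFB2 (adjusted p = 0.0271). Lmna, lamin A/C of the nuclear lamina, rose by 0.52 ± 0.17 with BMP4-TGFB2 (adjusted p = 0.0384) and by 0.72 ± 0.17 with BMP4 (adjusted p = 0.0299). Vim, vimentin, the filament of mesenchymal cells, had 33.3 to 340.0 TPM with BMP4-TGFB2, 15.0 to 64.2 with BMP4, 74.7 to 448 with TGFB2 and 14.7 to 67.5 in NT and did not pass against NT. These lists were assembled with earlier results of the data known, and their counts are descriptions.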

How the data were processed

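Poly(A) RNA of 12 libraries was read as pairs of 150 bases. The submitters' processing notes name bcl2fastq 2.17, STAR 2.7.5b, Salmon 1.2.1 and the GRCm38.p6 build, with settings not given in the sources used here. Estimated counts per gene were made with Salmon and deposited by the authors, per the file headers (82.9% whole; rounding here changed the total by 0.000361%). TPM values, scaled by the authors for length and depth, were deposited in a second table and gave the levels. A deposited signal table held counts that the authors had scaled by library, since its ratio to the counts varied by at most 3.80% within a library, and no test used it. Per the file headers, the library type was unstranded and the sequencing batch the same for all. Exon-sharing partners of tested keratins had at most 0.999% of their CPM.

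Genes were filtered with filterByExpr (minimum count 10) and tested by quasi-likelihood (edgeR 4.0.16, R 4.3.3), all 12 libraries in 1 model, TMM factors 0.971 to 1.03, in 7 comparisons, after a test of the code on simulated data. Members, lists, tests and alternatives were chosen with earlier results of these data known. Keratins were described one by one where they passed the filter and a group mean reached 1 TPM; others were named where they passed or had the highest level, and from each list up to 4 genes with the smallest p. Krt5, Krt90, Krt1, Foxa1 and the marker genes were named after their values were seen. Same-numbered libraries deviated together in every pair, with correlations from 0.146 to 0.505, in BMP4 against NT, BMP4 against TGFB2 and BMP4-TGFB2 against either ligand, so the replicate block is given there where it changed a call. Alternatives used RLE factors, DESeq2 1.42.0, limma 3.58.1 on voom values or log2(TPM + 0.1) and log2(TPM + 1), no filter, only the groups compared, the replicate block, and libraries left out.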

Additional observations from a re-analysis of the deposited data

How the results depend on the processing

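No keratin that passed reversed its direction among the alternatives run. Over keratins and comparisons, 2198 alternative values kept their side of the threshold, 79 lost a call and 37 gained one. The number of keratins that passed in TGFB2 against NT was 4, and 7 by DESeq2, a count not set against all genes. In BMP4-TGFB2 against BMP4 it was 4, and 2 with only the groups compared or without all replicate 1 libraries. In BMP4 against NT it was 4, and 1 without all replicate 1 libraries. In the interaction it was 0, and 1 without a filter, by DESeq2, by limma on log2(TPM + 1) and with the replicate block. In BMP4 against TGFB2 it was 4, and 7 with the replicate block. The counts without all replicate 1 libraries were not set against all genes. The cause of the differences between settings was not tested.

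Leaving out 1 library at a time gave 3 to 6 keratins in TGFB2 against NT, 2 to 4 in BMP4 against NT, 4 to 7 in BMP4-TGFB2 against NT, 2 to 4 in BMP4-TGFB2 against BMP4, 1 to 5 in BMP4 against TGFB2, and 0 to 0 in BMP4-TGFB2 against TGFB2 and in the interaction. The calls of Krt15 in BMP4 against NT, BMP4-TGFB2 against BMP4 and BMP4 against TGFB2, of Krt23 with TGFB2 and with BMP4-TGFB2 against NT, and of Krt80 with BMP4-TGFB2 against NT held in every alternative run. Without all replicate 1 libraries Krt14 missed the threshold in BMP4 against NT (1.73, adjusted p = 0.0587) and in BMP4-TGFB2 against NT (0.99, adjusted p = 0.0972), and Krt80 in TGFB2 against NT (1.10, adjusted p = 0.0636). Correlations of same-numbered libraries reached lower in TGFB2 against NT (0.0805 to 0.304) and BMP4-TGFB2 against NT (0.0256 to 0.233), yet all were positive. In these 2 comparisons the block added Krt17 with TGFB2. The interaction could not be fitted on only the groups compared, since it needs all 4. Depth limits Krt15, Krt17, Krt23 and Krt42, and also Krt5, Krt27, Krt87 and Krt90, in the groups with library counts under 20. Over all genes, the counts without and with the block were 3423 and 5799 in TGFB2 against NT, 4007 and 6342 in BMP4-TGFB2 against NT, 1412 and 3476 in BMP4-TGFB2 against BMP4, 0 and 6 in BMP4-TGFB2 against TGFB2, and 24 and 280 in the interaction. DESeq2 gave 1446 in BMP4 against NT, 1844 in BMP4 against TGFB2 and 257 in the interaction. Without a filter there were 23 in BMP4-TGFB2 against TGFB2 and 173 in the interaction. With only the groups compared, there were 554 in BMP4 against NT and 932 in BMP4-TGFB2 against BMP4.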
